A study of Mus musculus with 14 samples.

Results

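The brain transcriptome of MyTrMaSt + CBE mice was compared with that of WT + CBE mice. Both groups received conduritol B-epoxide (CBE), an irreversible inhibitor of the lysosomal enzyme glucocerebrosidase that is used to induce a chemical form of neuronopathic Gaucher disease, at 100 mg per kg body weight daily by intraperitoneal injection from postnatal day 8, and were killed at 19 days of age. WT mice were C57BL/6JOlaHsd, and MyTrMaSt mice were null in all cells for Myd88, Ticam1 (TRIF), Mavs and Tmem173 (STING). The comparison takes 8 of the 14 libraries of the series, 3 of WT + CBE and 5 of MyTrMaSt + CBE, and all 13866 listed genes, of which 11852 passed a filter on low counts and were tested. The other 6 libraries, 3 of WT + PBS and 3 of MyTrMaSt + PBS (phosphate buffered saline in place of CBE), came from other mice of the same age. They show the same genotype difference without CBE and the levels without CBE, and they also enter the low-count filter and the estimate of the spread behind every test. Each library held RNA from a hemibrain, so that fewer cells of a type and less RNA per cell cannot be told apart in any value below. The substrain of the MyTrMaSt line is not given in the sources used here, so that a difference between substrains and the 4 deletions cannot be told apart either.

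The 4 deleted genes encode adaptors through which a cell reports that a pathogen, or its own misplaced nucleic acid, has been sensed. MyD88 and TRIF act below the Toll-like receptors, MAVS below the cytosolic RNA receptors RIG-I and MDA5, and STING below the cytosolic DNA sensor cGAS. Each leads to NF-kappaB or to the interferon regulatory factors IRF3 and IRF7, and secreted type 1 interferon then acts through its receptor and a complex that holds STAT2 and IRF9 to induce a large set of interferon-stimulated genes. In the brain, microglia and astrocytes are the cells best known for this response, and both are known to react to glucosylceramide storage. The comparison asks what the brain expresses after CBE when these adaptors are missing.

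Libraries held 1637001 to 3406916 counts for WT + CBE and 2129161 to 2679585 for MyTrMaSt + CBE, so that 1 count was worth 0.291 to 0.603 CPM (counts scaled to a common library total after TMM normalisation) in the first group and 0.376 to 0.492 CPM in the second. Spearman correlations over the tested genes were 0.978 to 0.982 among WT + CBE libraries, 0.959 to 0.983 among MyTrMaSt + CBE libraries and 0.949 to 0.969 between the groups. On principal components of the 8 libraries the first component (38.4% of the variance) separated the genotypes. On the second (20.7%), MyTrMaSt + CBE replicate 4 scored -38.8, whereas the other 4 MyTrMaSt + CBE libraries scored 0.44 to 20.4. That library was also the one of its group with counts of Eif2s3y, a Y-linked gene, and the sexes of the mice are not given. Counts of DEGs by list are therefore also given without it where it changed them. Of the PBS libraries, WT + PBS replicate 1 had the fewest counts of the series (1290616). The summed level of 36 tested neuronal and synaptic genes was 12856 to 13446 CPM in WT + CBE and 13995 to 16810 CPM in MyTrMaSt + CBE. No other tissue was at hand to set these sums against, so they do not check the labelled tissue.

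Differentially expressed genes (DEGs) are those that differed at least 2-fold with an adjusted p value below 0.05 in the edgeR quasi-likelihood F test, and log2 fold changes are MyTrMaSt + CBE relative to WT + CBE, with their standard error (SE). The difference was almost all in 1 direction. Of the 11852 tested genes, 238 (2.01%) were DEGs, of which 229 (1.93%) were lower in MyTrMaSt + CBE and 9 (0.0759%) were higher. Without the fold cutoff the counts were 278 lower (2.35%) and 23 higher (0.194%). Among the 229 lower DEGs, 111 differed at least 4-fold, 31 at least 16-fold and 20 at least 32-fold, and their median log2 fold change was -1.96 compared with 0.018 over all tested genes. All 3 WT + CBE libraries were above all 5 MyTrMaSt + CBE libraries for 226 of the 229 (1.91% of tested genes). Without regard to DEG calls, this held for 713 tested genes (6.02%), and the opposite order for 467 (3.94%). Without MyTrMaSt + CBE replicate 4 there were 226 lower DEGs, 214 of them among the 229, and 11 higher, 7 of them among the 9.

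Of the deleted adaptors, Myd88 alone was a DEG. It stood at 20.7, 27.2 and 27.1 CPM in WT + CBE and at 8.57, 7.51, 5.67, 10.8 and 3.91 CPM in MyTrMaSt + CBE (-1.77 ± 0.26 on the log2 scale, adjusted p = 0.00029). The groups did not overlap, but the gene was not at 0 in any MyTrMaSt + CBE library, and exons of Acaa1a lie over it on the opposite strand, which the counting may or may not have separated. Ticam1 (log2 fold change -0.34 ± 0.33), Mavs (-0.64 ± 0.37) and Tmem173 (0.33 ± 0.27) did not pass the test, with overlapping groups. The reads come from transcript 3′ ends, which may lie outside the deleted part of a gene, so these levels check neither the deletions nor the labels.

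Within the interferon pathway, Irf7, Irf9, Stat2 and Usp18 were the lower genes with the most counts, while the members named here from the receptor level did not pass the test. Of 19 tested genes of interferon signalling, 7 were lower DEGs and 0 were higher, with a median log2 fold change of -0.71. Irf7, the interferon regulatory factor that sustains type 1 interferon production and is itself induced by interferon (chr7:141262706-141266481, minus strand, exons of Phrf1 opposite), was at 208 to 309 CPM in WT + CBE and at 1.56 to 6.65 CPM in MyTrMaSt + CBE (-5.99 ± 0.31, adjusted p = 3.7e-10). Usp18, which removes ISG15 from proteins and damps the interferon receptor (chr6:121245906-121270917, plus strand), was counted at 56.4, 33.3 and 58.4 CPM in WT + CBE. In MyTrMaSt + CBE it was at 0.39, 0, 0.811, 0 and 0.391 CPM, which is 4 counts in all, below the level of any WT + CBE library (-7.05 ± 0.41, adjusted p = 1.6e-09). Irf9, the DNA-binding subunit of the interferon-activated complex, stood at 145, 109 and 161 CPM against 15.2, 15.4, 17.8, 13.8 and 24.3 CPM (-2.99 ± 0.20). Its partner Stat2 was at 72.7, 54.4 and 80.7 CPM against 23.4, 23.3, 23.9, 25.1 and 21.1 CPM (-1.57 ± 0.17). Neither overlapped between the groups. Upstream of them, Jak1, the kinase bound to interferon receptors, differed by 0.04 ± 0.33 (95% interval -0.66 to 0.73), and Ifngr2, a subunit of the interferon gamma receptor, by -0.20 ± 0.19 (-0.59 to 0.20). The groups overlapped for either gene. Nor were the transcription factors Irf2 (-0.71), Irf3 (-0.21) and Irf5 (-0.74) or the feedback inhibitor Socs1 (-0.94), chosen after their values were seen, DEGs.

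Antiviral effectors were the list with the most lower DEGs. Of 42 tested, 38 (90.5%) were lower DEGs and 0 higher, with a median log2 fold change of -2.95, beside 1.93% and 0.018 over all tested genes, and the groups did not overlap for 41. Ifit1, which binds viral RNA caps (chr19:34640871-34650009, plus strand), was counted at 173, 135 and 159 CPM in WT + CBE and at 0.779, 0.751, 1.22, 0.492 and 2.35 CPM in MyTrMaSt + CBE (-7.04 ± 0.35, adjusted p = 2.5e-10). Oasl2, of the 2′-5′ oligoadenylate synthetase family (chr5:114896936-114912234, plus strand), was at 106, 89.6 and 78.9 CPM against 0.39, 0, 0.811, 0.985 and 1.57 CPM (-6.88 ± 0.31, adjusted p = 1.4e-10). Both were thus at no more than a few counts per library in MyTrMaSt + CBE, far below the lowest WT + CBE library.

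Among the effectors with the most counts, Bst2 (tetherin), which holds budding virus at the cell surface, stood at 265, 215 and 251 CPM in WT + CBE and at 18.7, 16.5, 22.3, 14.8 and 17.2 CPM in MyTrMaSt + CBE (-3.76 ± 0.18, adjusted p = 2.5e-10). Lgals3bp, a secreted galectin-binding protein, was at 458, 375 and 446 CPM compared with 41.7, 43.2, 46.2, 44.8 and 52.5 CPM (-3.22 ± 0.16). The mitochondrial protein Ifi27 was at 207, 183 and 232 CPM against 52.2, 37.2, 26.3, 50.7 and 61.8 CPM (-2.18 ± 0.22). None of the 3 overlapped between the groups. Isg15, the ubiquitin-like modifier (-6.30 ± 0.34), Mx1, a GTPase that traps viral nucleocapsids (-5.52 ± 0.48, and -7.12 without MyTrMaSt + CBE replicate 5), and Rtp4 (-5.17 ± 0.26) were also among the lower antiviral genes. Cmpk2 (-0.96 ± 0.24, adjusted p = 0.04) and Samhd1, which depletes nucleotides (-0.99 ± 0.22, adjusted p = 0.016), were among the 4 tested members that were no DEG, because their fold change was just under 2.

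**Figure D1:**
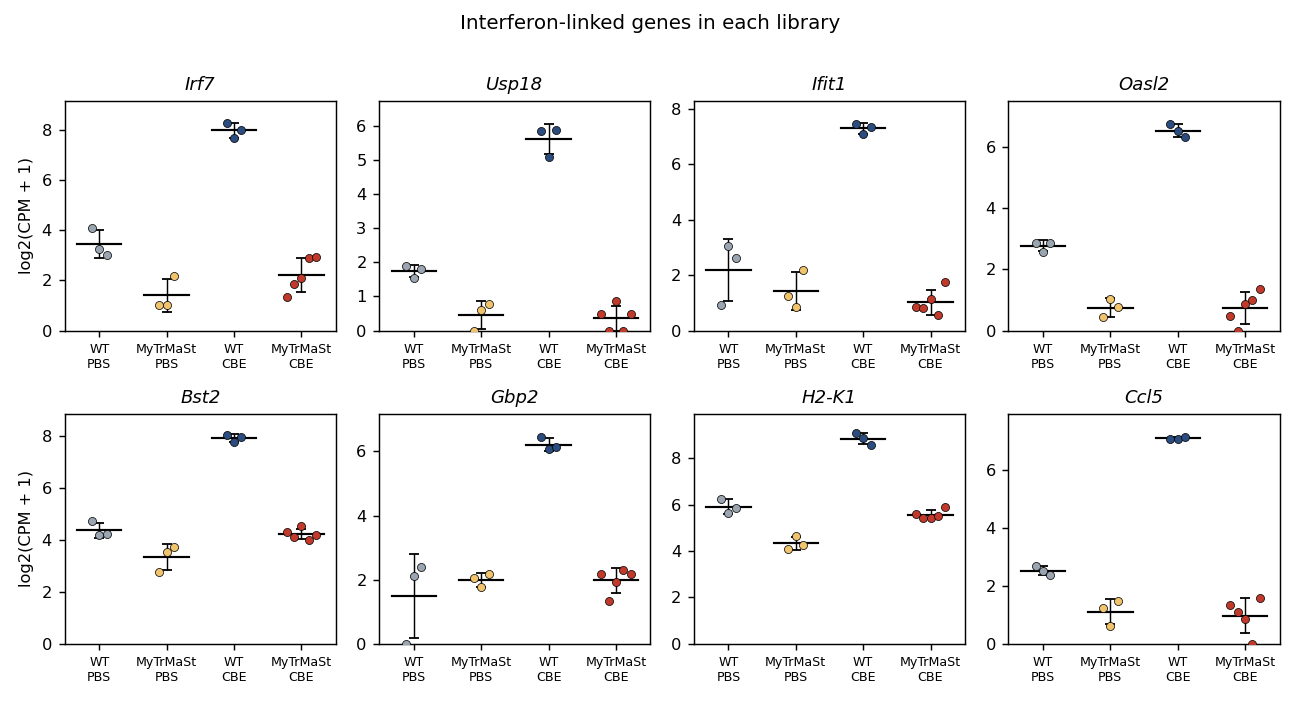
Level of 8 genes as log2(CPM + 1) in each library (points), by genotype and treatment, with the mean (line) and SD (error bars) of each group. The 3 WT + CBE libraries lie above all other libraries for each gene, for example at 208 to 309 CPM for Irf7, while the 5 MyTrMaSt + CBE libraries lie near or below the WT + PBS libraries.

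All 10 tested interferon-inducible GTPases, which attack the membranes of intracellular microbes, were lower DEGs, with a median log2 fold change of -4.18. Gbp2 was at 85.8, 66.6 and 68.7 CPM in WT + CBE and at 3.51, 1.5, 2.84, 3.94 and 3.52 CPM in MyTrMaSt + CBE (-4.59 ± 0.28, adjusted p = 2.7e-09). Irgm1 was at 204, 134 and 146 CPM against 29.2, 22.2, 19.0, 27.6 and 23.9 CPM (-2.73 ± 0.24). Gbp3 (-3.77 ± 0.21) and Igtp (-3.60 ± 0.27) lay between them, and none of these groups overlapped. For 3 members too few reads remained for a stable fold. Gbp5 had 60 counts in the 3 WT + CBE libraries and 1 in the 5 MyTrMaSt + CBE libraries, a ratio of CPM of 102 with a 95% counting interval of 17.6 to 4094. Iigp1 had 74 and 2 counts (62.9, interval 16.8 to 529), and Gm4841 had 41 and 0 counts, at least 23.2-fold lower when the group total is set to 3 counts. These 3 genes were chosen for their low counts after their values were seen. Reads of near-identical GTPase copies may be split between genes or lost, since only reads with 1 mapping position were kept.

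The promoters of these genes were searched for the binding motif of the interferon-activated STAT and IRF complex. The interferon-stimulated response element (ISRE) was searched as GAAA, any 2 bases and GAAA, on both strands, in the RefSeq windows (GRCm38.p6) from 250 bases before to 50 after a gene's start. At least 1 match was found in 41 of the 165 lower DEGs with a window (24.8%) compared with 330 of 9066 tested genes (3.64%). The share was 7 of 8 (87.5%) among the lower GTPases and 14 of 29 (48.3%) among the lower antiviral effectors. It was 17 of 114 (14.9%) among lower DEGs outside 4 lists (interferon signalling, antiviral effectors, GTPases, and MHC class I presentation and immunoproteasome). None of 7 higher DEGs with a window held a match. The NF-kappaB motif, searched as GGGA, any 4 bases and CC, on both strands, was in 59 of 165 (35.8%) compared with 31.2% of tested genes. The STAT homodimer motif TTCNNNGAA, its own reverse complement, was in 18.8% compared with 7.92%. A match is a description of the letters, not a measured binding site.

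The 5 windows below show how the match sits in genes of 4 roles: a modifier (Isg15), effectors (Ifit1 and Bst2), a GTPase (Gbp2) and a chemokine (Cxcl10). They are given 5′ to 3′ on the strand of the gene, and capitals mark matches to the ISRE and NF-kappaB motifs. Isg15 (chr4:156200769-156201068, minus strand) holds 3 overlapping ISRE matches at -78, -72 and -66, counted from the start site at 0. Ifit1 (chr19:34640639-34640938, plus strand) holds 2, at -104 and -85, both read on the other strand. Bst2 (chr8:71537423-71537722, minus strand) holds 2 overlapping matches at -130 and -124. Gbp2 (chr3:142620413-142620712, plus strand) holds 1 ISRE match at -59 and 1 NF-kappaB match at 7. Cxcl10 (chr5:92348840-92349139, minus strand) holds 1 ISRE match at -213 and NF-kappaB matches at -159 and -103.
Isg15: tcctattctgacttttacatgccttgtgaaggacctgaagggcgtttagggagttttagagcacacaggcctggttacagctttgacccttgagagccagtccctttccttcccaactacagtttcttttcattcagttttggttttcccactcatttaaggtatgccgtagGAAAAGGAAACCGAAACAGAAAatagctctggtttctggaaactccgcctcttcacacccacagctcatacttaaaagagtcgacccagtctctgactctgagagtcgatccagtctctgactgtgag
Ifit1: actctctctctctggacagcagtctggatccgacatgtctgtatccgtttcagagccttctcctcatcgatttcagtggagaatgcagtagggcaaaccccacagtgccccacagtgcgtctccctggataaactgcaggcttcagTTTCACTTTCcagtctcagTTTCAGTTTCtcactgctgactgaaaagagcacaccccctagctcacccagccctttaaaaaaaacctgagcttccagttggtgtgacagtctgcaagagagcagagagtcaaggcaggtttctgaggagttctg
Bst2: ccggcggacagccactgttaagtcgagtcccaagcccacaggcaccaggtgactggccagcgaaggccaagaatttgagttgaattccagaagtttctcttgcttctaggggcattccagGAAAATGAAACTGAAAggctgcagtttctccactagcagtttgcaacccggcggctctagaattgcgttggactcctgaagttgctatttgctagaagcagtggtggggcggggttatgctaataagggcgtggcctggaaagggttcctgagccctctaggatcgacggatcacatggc
Gbp2: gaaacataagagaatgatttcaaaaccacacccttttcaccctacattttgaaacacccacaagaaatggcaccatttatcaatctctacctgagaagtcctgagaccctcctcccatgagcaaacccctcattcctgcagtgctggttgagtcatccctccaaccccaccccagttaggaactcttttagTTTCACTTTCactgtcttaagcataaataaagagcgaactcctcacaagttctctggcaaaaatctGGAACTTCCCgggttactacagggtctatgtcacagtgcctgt
Cxcl10: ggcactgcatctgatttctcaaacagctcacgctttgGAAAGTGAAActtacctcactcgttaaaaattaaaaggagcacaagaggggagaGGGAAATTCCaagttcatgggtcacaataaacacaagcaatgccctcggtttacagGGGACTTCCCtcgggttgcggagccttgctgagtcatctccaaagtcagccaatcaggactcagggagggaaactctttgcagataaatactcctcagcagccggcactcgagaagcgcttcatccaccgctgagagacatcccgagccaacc

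Nucleic acid and pattern sensors, some of which signal through the deleted adaptors, were lower in part. Of 18 tested, 11 were lower DEGs and 0 higher (median log2 fold change -2.01, 10 of them without MyTrMaSt + CBE replicate 4). Zbp1, a sensor of Z-form nucleic acid, was at 34.9, 27.2 and 38.6 CPM in WT + CBE and at 0.39, 0, 0.811, 3.45 and 0 CPM in MyTrMaSt + CBE (-5.27 ± 0.49, adjusted p = 1.1e-06, and -6.62 without replicate 4). Ifi204, a DNA sensor of the PYHIN family, was at 43.4, 31.0 and 24.1 CPM against 1.17, 1.5, 0, 0.492 and 0.783 CPM (-5.28 ± 0.38). Tlr2, the receptor for bacterial lipoproteins, was at 47.4, 42.2 and 44.0 CPM against 14.8, 5.63, 8.51, 13.8 and 13.3 CPM (-2.0 ± 0.24), and Clec7a (dectin-1), the receptor for fungal glucans, differed by -2.35 ± 0.41. In all 4 the groups were apart. The LPS co-receptor Cd14 was the most abundant member that was no DEG, at 40.4 to 46.0 CPM in WT + CBE and 27.4 to 60.6 CPM in MyTrMaSt + CBE (-0.22 ± 0.23, 95% interval -0.71 to 0.27).

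MHC class I presentation was lower in members of the immunoproteasome, of peptide loading and of the class I molecule itself. Of 16 tested genes, 11 were lower DEGs, 14 passed the test without the fold cutoff, and the median log2 fold change was -2.16. The class I heavy chain H2-D1 (chr17:35262730-35267499, plus strand) was counted at 1154, 906 and 920 CPM in WT + CBE and at 138, 147, 142, 172 and 167 CPM in MyTrMaSt + CBE (-2.70 ± 0.12, adjusted p = 1.5e-10). H2-K1 (chr17:33996017-34000347, minus strand) was at 546, 467 and 386 CPM compared with 47.5, 42.1, 42.1, 44.8 and 59.1 CPM (-3.31 ± 0.17). The heavy chains are similar in sequence, so the division of reads between them is uncertain. B2m, the light chain shared by all class I molecules, was at 1115, 928 and 893 CPM against 167, 152, 165, 144 and 157 CPM (-2.64 ± 0.42), and Tapbp (tapasin), which loads peptide, at 178, 205 and 197 CPM against 52.6, 53.7, 60.8, 59.1 and 55.2 CPM (-1.78 ± 0.14). Every WT + CBE library was above every MyTrMaSt + CBE library in these 4 genes. Of the immunoproteasome genes, Psmb8 (-2.62 ± 0.16) and Psmb9 (-2.67 ± 0.34), chosen after their values were seen, were DEGs of similar size, whereas Psmb10 (-0.89 ± 0.13, adjusted p = 0.00033) and Psme1 (-0.88 ± 0.17, adjusted p = 0.0045), a proteasome activator subunit, passed the test with less than a 2-fold difference. In class II presentation and co-stimulation, 4 of 8 tested genes were lower DEGs. They were the protease Ctss (825 to 1040 against 261 to 333 CPM, -1.68 ± 0.15), Cd74 (-1.49 ± 0.32), H2-Aa (-1.34 ± 0.31) and Cd274, which encodes PD-L1 (-2.24 ± 0.34), whereas H2-DMa differed by 0.01 ± 0.14. Cd74 and H2-Aa, both under 16 CPM, were no DEGs without WT + CBE replicate 1 (adjusted p = 0.057 and 0.094) or without replicate 3 (0.091 and 0.11), and H2-Aa not without MyTrMaSt + CBE replicate 5 (0.06).

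Among chemokines, Ccl5 and Cxcl10 were lower by the largest factors. Of 16 tested chemokines and receptors, 6 were lower DEGs and 0 higher (median log2 fold change -0.56, and 1 higher without MyTrMaSt + CBE replicate 4). Ccl5, which draws T cells and monocytes, stood at 134, 135 and 140 CPM in WT + CBE and at 1.56, 1.13, 0.811, 0 and 1.96 CPM in MyTrMaSt + CBE (-6.85 ± 0.28, adjusted p = 5.6e-11). Cxcl10, the interferon-induced ligand of CXCR3 (exons of Art3 opposite), was at 498, 272 and 454 CPM against 7.01, 2.25, 3.24, 11.8 and 5.87 CPM (-6.11 ± 0.33). The monocyte chemokine Ccl2 was at 75.1, 59.6 and 68.7 CPM against 5.46, 6.76, 5.67, 20.7 and 6.26 CPM (-2.97 ± 0.31). Its neighbour Ccl12 (-3.18 ± 0.28) was similarly lower, with groups apart in all 4, and the other DEGs, chosen after their values were seen, were Cxcl16 (-2.59 ± 0.23) and Cxcl1 (-2.73 ± 0.48). Among the abundant members that were no DEG, the neuronal chemokine Cx3cl1 (fractalkine) was at 345 to 465 and 412 to 529 CPM (0.19 ± 0.15, 95% interval -0.13 to 0.51), and Cxcl14 at 209 to 233 and 267 to 340 CPM (0.41 ± 0.14, 0.11 to 0.70, adjusted p = 0.22).

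**Figure D2:**
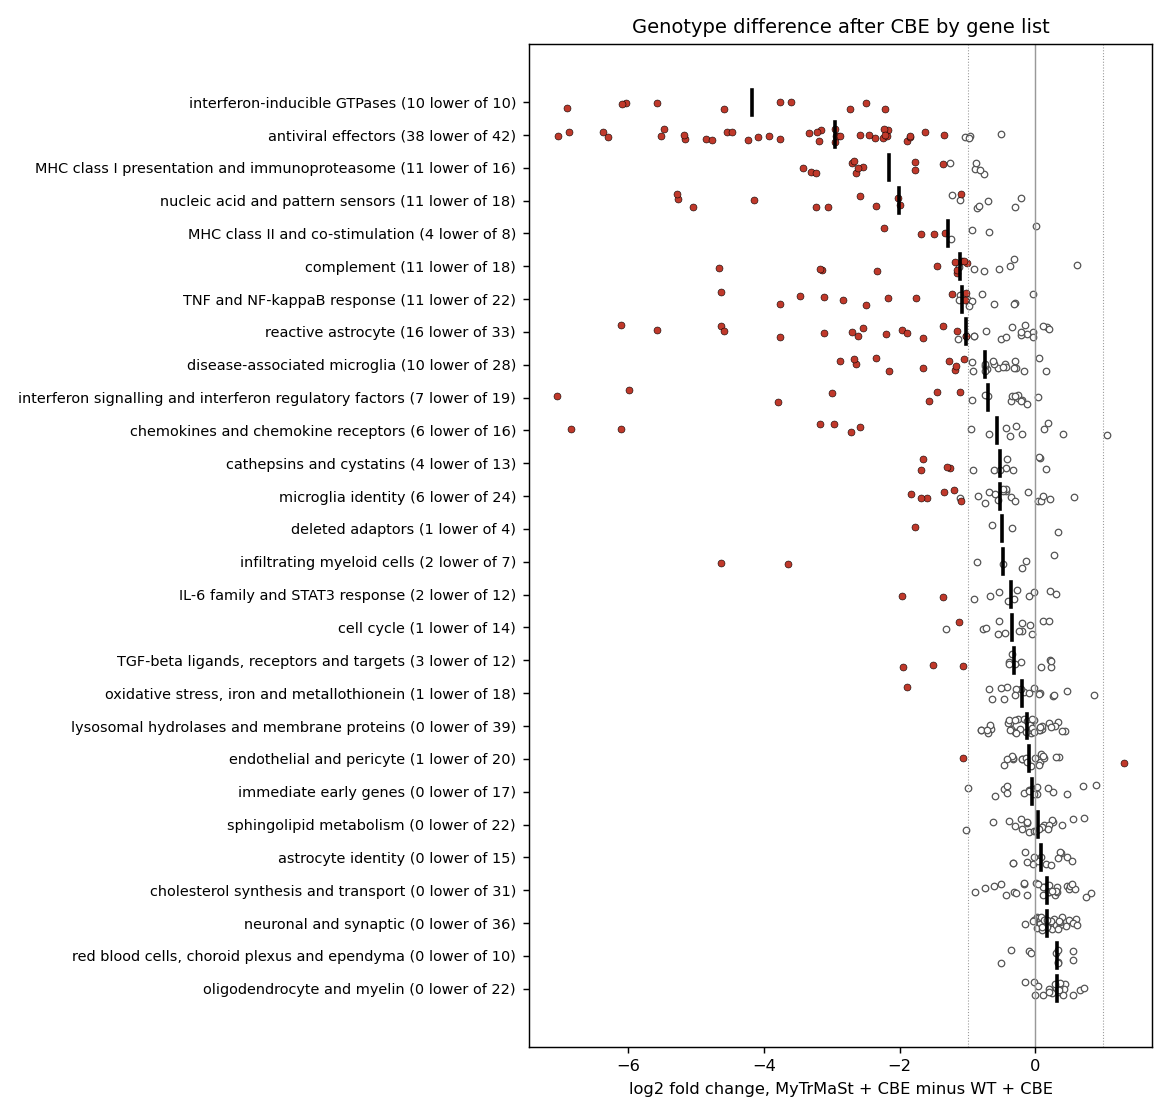
Log2 fold change, MyTrMaSt + CBE relative to WT + CBE, of each tested gene (points) in 28 gene lists, ordered by their median (black bar), with DEGs filled and dotted lines at 2-fold. The interferon-inducible GTPases (10 of 10 lower DEGs, median -4.18) and the antiviral effectors (38 of 42, median -2.95) lie at the top, and the oligodendrocyte list (0 of 22, median 0.32) lies at the bottom.

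Genes of the TNF and NF-kappaB response were lower in part. Of 22 tested, 11 were lower DEGs, 15 passed the test without the fold cutoff, all 22 had a log2 fold change below 0 (5518 of the 11852 tested genes did), and the median was -1.08. Without MyTrMaSt + CBE replicate 4, 12 were lower DEGs. Lcn2, an iron-sequestering acute phase protein made by reactive astrocytes and neutrophils (chr2:32384633-32388252, minus strand), was at 380, 519 and 750 CPM in WT + CBE and at 15.2, 25.5, 21.5, 24.6 and 23.1 CPM in MyTrMaSt + CBE (-4.64 ± 0.34, adjusted p = 3.6e-08). The metalloreductase Steap4 was at 53.2, 63.8 and 54.8 CPM against 3.90, 2.25, 3.24, 6.4 and 5.48 CPM (-3.76 ± 0.28). The soluble pattern receptor Ptx3 was at 71.6, 74.6 and 74.7 CPM against 3.51, 4.51, 4.46, 25.1 and 6.65 CPM (-3.12 ± 0.40). The groups were apart for all 3, although MyTrMaSt + CBE replicate 4 was well above the rest of its group for Ptx3, whose log2 fold change was -3.93 without it. Icam1, an adhesion molecule for leukocytes, differed by -2.49 ± 0.26. Nfkbia, the inhibitor that NF-kappaB itself induces, passed the test with less than a 2-fold difference (-0.79 ± 0.16, adjusted p = 0.0075). Tnfrsf1a, the main TNF receptor, did not pass it (-0.30 ± 0.18), and its replicate 4 value of 154 CPM in MyTrMaSt + CBE lay above all 3 WT + CBE libraries (114 to 140 CPM).

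In the IL-6 and STAT3 list, 2 of 12 tested genes were lower DEGs, the protease inhibitors Serpina3n (-1.35 ± 0.20) and Timp1 (-1.97 ± 0.24). The list median of -0.36 became -0.60 without MyTrMaSt + CBE replicate 4. In the TGF-beta list, 3 of 12 were lower DEGs, namely the matrix protein Tgfbi (-1.95 ± 0.24), the cross-linking enzyme Tgm2 (-1.06 ± 0.22) and the stress cytokine Gdf15 (-1.5 ± 0.35), while Tgfbr1 (-0.30 ± 0.18) and the inhibitory Smad7 (0.23 ± 0.18) did not pass the test. Gdf15, at 1.17 to 11.3 CPM, lost its call without any 1 of the WT + CBE libraries (adjusted p = 0.053 to 0.13) or without MyTrMaSt + CBE replicate 3 (0.063), and Tgm2 lost it without WT + CBE replicate 1 (0.079), or by falling under 2-fold without MyTrMaSt + CBE replicate 2.

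In the complement list, lower DEGs included C1q chains, C4b and C3. Of 18 tested genes, 11 were lower DEGs and 0 higher (median log2 fold change -1.11, 9 lower without MyTrMaSt + CBE replicate 4). C1qa, a chain of the initiating C1q complex made by microglia, was at 1416, 1149 and 1317 CPM in WT + CBE and at 598, 566, 532, 670 and 677 CPM in MyTrMaSt + CBE (-1.09 ± 0.17, adjusted p = 0.00076). C1qc was at 538, 597 and 495 CPM against 238, 277, 218, 224 and 258 CPM (-1.16 ± 0.14), and C1qb, the other chain, differed by -0.90 ± 0.16 (adjusted p = 0.0022) and so was no DEG. All 3 chains had groups that did not overlap. C4b, whose reads may be shared with its copy C4a, lay at the 2-fold cutoff (142, 150 and 160 against 64.5 to 88.9 CPM, -1.0 ± 0.21) and was no DEG without MyTrMaSt + CBE replicate 1, 2 or 4, with a log2 fold change of -0.99, -0.96 and -0.95. It was no DEG either without WT + CBE replicate 2 or 3, with an adjusted p of 0.051 and 0.063. The largest differences in the list, chosen after their values were seen, were in the activating protease Cfb (16.9 to 21.5 against 0 to 1.96 CPM, -4.66 ± 0.50) and in C3, on which the pathways converge (43.2 to 62.0 against 2.46 to 10.6 CPM, -3.17 ± 0.31). The inhibitor Cd59a, chosen likewise, lay in the other direction with groups apart (22.1 to 28.9 against 32 to 45.8 CPM, 0.61 ± 0.19, adjusted p = 0.16) and was a higher DEG after PBS (1.38).

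Of 24 tested microglial identity genes, 6 were lower DEGs and 0 higher (median log2 fold change -0.52, 7 lower without MyTrMaSt + CBE replicate 4), and the summed level of the list was 3518 to 4026 CPM in WT + CBE, 2091 to 2365 CPM in MyTrMaSt + CBE and 767 to 817 CPM in WT + PBS. The DEGs included Aif1 (IBA1), a calcium-binding protein of activated microglia, at 80.6, 83.1 and 78.9 CPM compared with 23.4, 20.7, 36.1, 29.0 and 24.3 CPM (-1.60 ± 0.24, adjusted p = 0.00036). Fcer1g, the signalling chain of Fc receptors, was at 126, 148 and 143 CPM compared with 49.1, 65.7, 45.4, 62.5 and 79.1 CPM (-1.20 ± 0.18). The inhibitory receptor Fcgr2b was at 55.4 to 78.8 CPM compared with 26.1 to 32.7 CPM (-1.10 ± 0.18), and was under 2-fold without WT + CBE replicate 2. Ctss, given above among the presentation genes, is also in this list. The adaptor Tyrobp (-0.48 ± 0.17, adjusted p = 0.22) and Ly86 (-0.30 ± 0.26) did not pass the test. Homeostatic markers, chosen here after their values were seen, were no DEGs either. P2ry12 was at 22.1 to 27.7 CPM in WT + CBE and 24.1 to 40.1 CPM in MyTrMaSt + CBE (0.21), and Sall1 at 15.7 to 24.7 and 15.8 to 24.7 CPM (-0.11). Tmem119 was at 42.2 to 64.0 and 25.1 to 41.3 CPM (-0.84, adjusted p = 0.076), with groups that did not overlap. The log2 fold change was -0.43 for P2ry13, -0.43 for Cx3cr1, 0.04 for Siglech, 0.08 for Fcrls, 0.57 for Olfml3 and 0.12 for Selplg, and it was below 0 for 19 of the 24 genes of the list.

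Of 28 tested genes of disease-associated microglia, the state that microglia take around damage and storage, 10 were lower DEGs and 0 higher (median log2 fold change -0.74, 9 lower without MyTrMaSt + CBE replicate 4), and 16 passed the test without the fold cutoff. Lgals3 (galectin-3, the antigen MAC2) was at 410, 494 and 376 CPM in WT + CBE and at 143, 176, 144, 191 and 226 CPM in MyTrMaSt + CBE (-1.28 ± 0.23, adjusted p = 0.0023). Cst7 (cystatin F), an inhibitor of lysosomal cysteine proteases, was at 120, 96.2 and 85.0 CPM against 40.5, 31.5, 24.7, 30.5 and 31.7 CPM (-1.66 ± 0.21). Lysozyme, Lyz2, differed by -1.05 ± 0.19 and was under 2-fold without WT + CBE replicate 2. All MyTrMaSt + CBE libraries remained far above PBS levels in these genes, which were 3.37 to 17.1 CPM for Lgals3 and 0.422 to 1.80 CPM for Cst7 in WT + PBS. The ferritin chain Fth1 was no DEG and differed by -0.29 ± 0.12 (adjusted p = 0.39).

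Of 33 tested reactive astrocyte genes, 16 were lower DEGs and 0 higher (median log2 fold change -1.02). Without MyTrMaSt + CBE replicate 4, 17 of 32 tested were lower DEGs. Serpina3n was at 1412, 1843 and 1582 CPM in WT + CBE and at 649, 383, 575, 726 and 819 CPM in MyTrMaSt + CBE (-1.35 ± 0.20, adjusted p = 0.00038). Vim (vimentin), an intermediate filament, was at 818, 1017 and 929 CPM against 446, 435, 369, 518 and 499 CPM (-1.02 ± 0.15), close to the cutoff and under 2-fold without WT + CBE replicate 2 or MyTrMaSt + CBE replicate 3. Its groups did not overlap. Gfap, the astrocyte filament by which gliosis is usually scored, was at 580, 480 and 498 CPM against 467, 614, 451, 470 and 532 CPM (-0.03 ± 0.24, 95% interval -0.54 to 0.47). Those groups overlapped fully. Fkbp5, a glucocorticoid-responsive chaperone, did not pass the test either (-0.16 ± 0.21). The list shares 12 of its 16 DEGs with lists above (Serpina3n, Timp1, Lcn2, Ptx3, Steap4, Cxcl10, H2-D1, H2-T23, Psmb8, Gbp2, Iigp1 and Serping1), so that its count is not separate from theirs. In the list of astrocyte identity, 0 of 15 tested genes were DEGs (median 0.08, and 0.0034 to 0.19 with 1 CBE library left out), and the glutamate transporter Slc1a2 was at 1809 to 1974 CPM in WT + CBE and 2308 to 2535 CPM in MyTrMaSt + CBE (0.38 ± 0.11, adjusted p = 0.13).

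**Figure D3:**
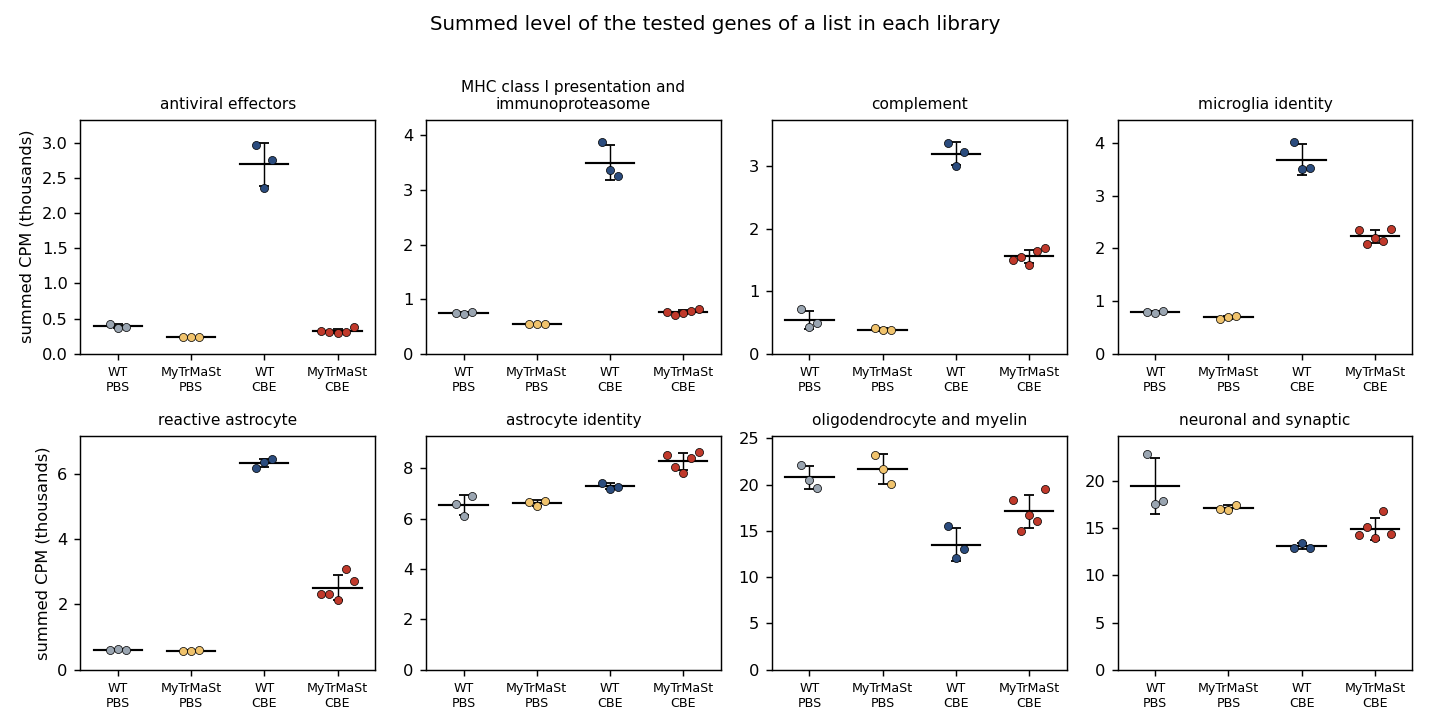
Summed level (kilo-CPM) of the tested genes of 8 lists in each library (points), by genotype and treatment, with the mean (line) and SD (error bars) of each group. Antiviral effectors sum to 301 to 379 CPM in MyTrMaSt + CBE, beside 363 to 422 CPM in WT + PBS and 236 to 242 CPM in MyTrMaSt + PBS, whereas the microglial and reactive astrocyte lists lie between the PBS and the WT + CBE libraries.

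In lists of storage and metabolism, counts of DEGs are read beside the 1.93% of all tested genes that were lower DEGs, at which lists of this size hold few or none. None of 39 tested lysosomal hydrolases and membrane proteins was a DEG (median log2 fold change -0.12), but 3 passed the test as lower without the fold cutoff, and for 11 all WT + CBE libraries were above all MyTrMaSt + CBE libraries (6.02% of all tested genes). The summed level of the list was 5907 to 6402 CPM in WT + CBE and 4896 to 5263 CPM in MyTrMaSt + CBE, which did not overlap. The membrane protein Lamp1 differed by -0.15 ± 0.11 (95% interval -0.37 to 0.08), and the lysosomal growth factor Grn (progranulin) by -0.81 ± 0.15 (adjusted p = 0.0026). Of 13 cathepsins and cystatins, 4 (30.8%) were lower DEGs, among them Ctsh (57.8 to 75.6 against 24.6 to 33.7 CPM, -1.30 ± 0.17) and Ctsc (45.2 to 55.4 against 19.1 to 24.6 CPM, -1.26 ± 0.18) with Ctss and Cst7 above. The most abundant, Ctsd (3531 to 3886 against 2497 to 3022 CPM, -0.43 ± 0.17, adjusted p = 0.43) and Cst3 (0.05 ± 0.24), did not pass the test. There were 0 DEGs among 22 genes of sphingolipid metabolism (median 0.04) and 0 among 31 of cholesterol synthesis and transport (median 0.17). Without the fold cutoff, 1 sphingolipid gene passed the test as higher (0.194% of all tested genes). All MyTrMaSt + CBE libraries were above all WT + CBE libraries for 3 of the 22 and 6 of the 31, beside 3.94% of all tested genes. The opposite order held for 2 of the 22 and 3 of the 31, beside 6.02%. The ceramide synthase Cers2 (0.25 ± 0.14), the desaturase Degs1 (0.24 ± 0.12) and the cholesterol hydroxylase Cyp46a1 (0.03 ± 0.19) stand for these 2 lists. A single gene of sphingolipid metabolism was a lower DEG without MyTrMaSt + CBE replicate 4. By edgeR without the adjustment, 955 of all tested genes (8.06%) had a p below 0.05.

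The neuronal, myelin, immediate early, choroid plexus, oxidative stress, cell cycle and endothelial lists held 0 or 1 lower DEG each, beside 1.93% of all tested genes. There were 0 DEGs among 36 neuronal and synaptic genes (median log2 fold change 0.17), 22 oligodendrocyte and myelin genes (0.32), 17 immediate early genes (-0.05) and 10 genes of red blood cells, choroid plexus and ependyma (0.32, and 0.11 without WT + CBE replicate 2). Without the fold cutoff, 2 oligodendrocyte genes passed the test as higher. All MyTrMaSt + CBE libraries were above all WT + CBE libraries for 7 of the 36 neuronal and 6 of the 22 oligodendrocyte genes, beside 3.94% of all tested genes, and 3 genes of each list had a log2 fold change below 0. The synaptic protein gene Snap25 was at 1177 to 1324 CPM in WT + CBE and 1284 to 1547 CPM in MyTrMaSt + CBE (0.18 ± 0.13). Mbp, which encodes a main myelin protein (0.32 ± 0.15), and Egr1, induced by neuronal activity (-0.46 ± 0.14, adjusted p = 0.13), did not pass the test. The choroid plexus gene Ttr was at 1491 to 2440 and 1831 to 2901 CPM. The iron oxidase Cp was the only DEG of 18 genes of oxidative stress, iron and metallothionein (23.5 to 27.3 against 4.92 to 10.1 CPM, -1.90 ± 0.25). Ube2c, a mitotic ubiquitin enzyme, was the only DEG of 14 cell cycle genes (-1.13 ± 0.24). It lost its call without WT + CBE replicate 1 (adjusted p = 0.099). In the endothelial and pericyte list, Ly6a (Sca-1) was lower (73.2 to 113 against 37.9 to 53.2 CPM, -1.06 ± 0.27, adjusted p = 0.041) and Apln was higher, and 18 of 20 were no DEGs. The adjusted p of Ly6a was above 0.05 when any 1 of the WT + CBE libraries, of the MyTrMaSt + PBS libraries or of MyTrMaSt + CBE replicates 1, 2, 3 and 5 was left out (0.059 to 0.40).

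Markers of blood-derived cells were sparse. Of 14 listed genes of infiltrating myeloid cells 7 were tested, and 2 were lower DEGs, Lcn2 and the macrophage gene Ms4a7 (24.1, 32.4 and 24.7 against 3.12, 1.5, 1.62, 1.97 and 2.35 CPM, -3.64 ± 0.33, adjusted p = 7.6e-07). The summed level of the list was 582 to 903 CPM in WT + CBE and 136 to 181 CPM in MyTrMaSt + CBE, and Lcn2 made up most of it in WT + CBE. The other members with most reads, Fn1 (-0.20 ± 0.17) and S100a4 (-0.48 ± 0.25), did not pass the test. For lymphocytes, Cd4 (6.4 to 12.1 against 4.92 to 8.64 CPM) and Lck (2.82 to 6.63 against 1.17 to 2.46 CPM, adjusted p = 0.061) were tested and were no DEGs, and the T cell receptor gene Cd3e was listed but too low to be tested. The part that infiltrating cells have in the lower DEGs was not tested.

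The genotypes were also compared without CBE, in 3 and 3 mice. With all libraries, the same model called 19 DEGs between MyTrMaSt + PBS and WT + PBS (0.16%), of which 15 (0.127%) were lower and 4 (0.0337%) were higher. That count depended on single libraries: it was 303 without WT + PBS replicate 2, when the CBE groups gave 239 lower and 10 higher DEGs, 62 without WT + PBS replicate 3 and 5 without MyTrMaSt + PBS replicate 2. The 19 shared 7 genes with the DEGs after CBE, 7 of 19 and 7 of 238, and all 7 had the same direction: H2-K1, Lgals3bp, Oasl2, Ppdpf and Slx1b lower, and 2 genes higher. Over the 229 lower DEGs, the median log2 fold change was -1.96 after CBE, the difference on which they were chosen, and -0.32 after PBS, in different mice, and 157 (68.6%) had a PBS value below 0 compared with 49.6% of all tested genes. The interaction, which tests whether the genotype difference after CBE departs from that after PBS, passed an adjusted p of 0.05 for 58 tested genes (0.489%), 47 of them lower DEGs and 0 of them higher DEGs. The lower DEGs were chosen on the CBE difference, which is also part of the interaction, so this overlap is in part set by that choice. In Ifit1, the log2 fold change was -7.04 after CBE and -1.51 after PBS (interaction -5.53, adjusted p = 0.0024). In Gbp2 it was -4.59 and -0.04 (interaction -4.56, adjusted p = 0.00091), and in Lcn2 -4.64 and 0.20 (interaction -4.84, adjusted p = 0.0085). H2-D1 had the smallest interaction p value of the named genes (-2.70 and -0.54, interaction -2.16, adjusted p = 2.1e-05). By contrast, C1qa (-1.09 and -0.72, interaction -0.37, adjusted p = 0.58) and Myd88 (-1.77 and -1.66, interaction -0.11, adjusted p = 0.94) did not pass the interaction test. Xist, counted in no WT + PBS library, was counted in every MyTrMaSt + PBS library, and with its level as a covariate the interaction was called for 10 of the 229 lower DEGs in place of 47, while 225 genes were lower DEGs. Without MyTrMaSt + PBS replicate 3 the interaction was called for 22 of the lower DEGs.

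**Figure D4:**
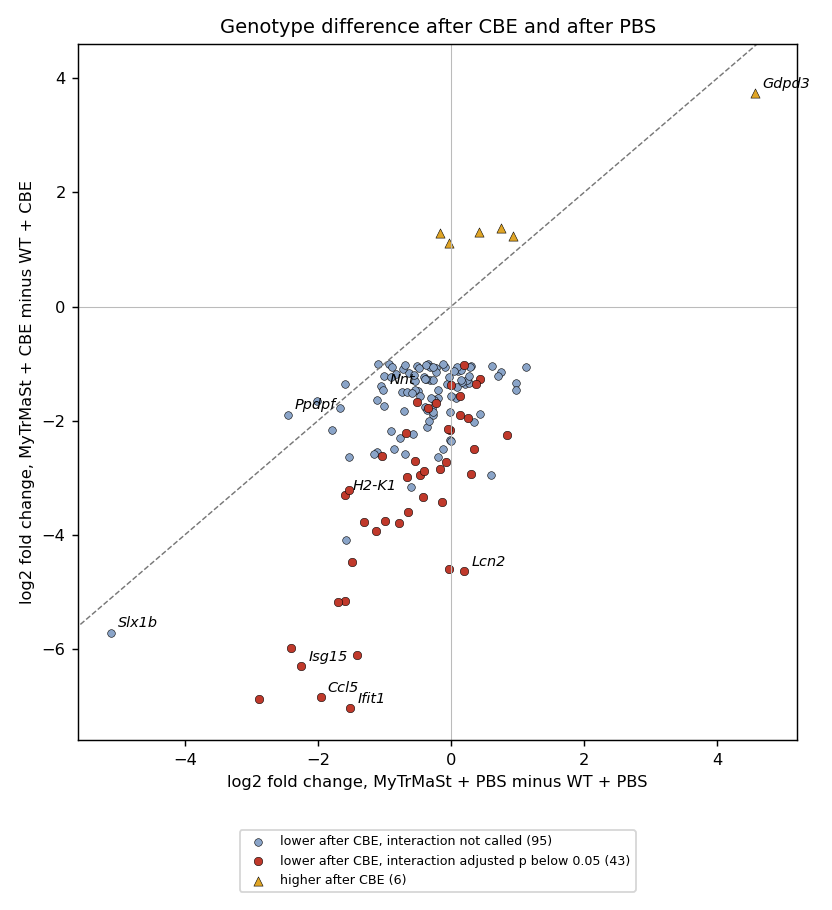
Log2 fold change of MyTrMaSt relative to WT after CBE (vertical axis) against the same after PBS (horizontal axis) for DEGs after CBE with a mean of at least 2 CPM over the 6 PBS libraries, with the line of equal change dashed. The 138 lower DEGs plotted were chosen for their value on the vertical axis, so their place below the line is in part set by that choice, and the 43 with an interaction adjusted p below 0.05 (red) include Ifit1 (-1.51 after PBS and -7.04 after CBE), while Slx1b, Ppdpf and Gdpd3 lie near the line.

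The levels of the lower DEGs were also set against the PBS mice. The WT + CBE mean was above the WT + PBS mean for 226 of the 229, which were chosen for being higher in WT + CBE than in MyTrMaSt + CBE. The MyTrMaSt + CBE mean was below the WT + PBS mean for 64 of them and above it for 164, and it was at least 2 times the WT + PBS mean for 96. Against mice of its own genotype, it was above the MyTrMaSt + PBS mean for 196. Among antiviral effectors it was below the WT + PBS mean for 25 of 38 and above the MyTrMaSt + PBS mean for 28. Isg15 averaged 1.90 CPM in MyTrMaSt + CBE, 12.8 CPM in WT + PBS and 2.28 CPM in MyTrMaSt + PBS, and Irf7 averaged 4.10, 10.7 and 1.87 CPM. Among disease-associated microglial genes it was below the WT + PBS mean for 0 of 10, above the MyTrMaSt + PBS mean for all 10 and at least 2 times the WT + PBS mean for 9 of 10. Lgals3 averaged 176 CPM in MyTrMaSt + CBE, 8.5 CPM in WT + PBS and 427 CPM in WT + CBE, and Serpina3n averaged 630, 27.0 and 1612 CPM. These are counts of group means, with no test.

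Of the 9 genes higher in MyTrMaSt + CBE, 8 are described. Gdpd3, a lysophospholipase D that makes lysophosphatidic acid (chr7:126766334-126775649, plus strand), was at 3.49, 4.69 and 3.01 CPM in WT + CBE and at 47.1, 53.7, 40.5, 54.6 and 56.0 CPM in MyTrMaSt + CBE (3.73 ± 0.26, adjusted p = 2.7e-08). The groups were far apart, and they were so without CBE as well (log2 fold change 4.57 after PBS, adjusted p = 6.3e-07). On the same chromosome, Slx1b, a subunit of a structure-specific nuclease (chr7:126689468-126695784, minus strand, exons of Bola2 opposite), was at 17.5, 14.5 and 13.3 CPM in WT + CBE and at 0.39, 0.751, 0, 0 and 0 CPM in MyTrMaSt + CBE. That is 113 against 3 counts, a ratio of CPM of 64.0 with a counting interval of 21.4 to 315, and the difference after PBS was also called (-5.11, adjusted p = 0.00015). Both genes thus differed between the genotypes with and without CBE. Ppdpf, also called after PBS (-2.46), differed by -1.89 ± 0.34.

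Serpinf2 (alpha-2-antiplasmin) was at 0.873, 0.939 and 1.21 CPM in WT + CBE and at 5.46, 4.51, 3.65, 4.43 and 8.22 CPM in MyTrMaSt + CBE (2.38 ± 0.46, adjusted p = 0.0046). It rested on 7 counts in WT + CBE and was no DEG without WT + CBE replicate 1 (adjusted p = 0.078). Glycam1, a mucin-like ligand of L-selectin, was at 4.36, 8.45 and 1.81 CPM against 12.1, 14.3, 11.8, 14.3 and 11 CPM (1.34 ± 0.33, adjusted p = 0.031). It was no DEG when WT + CBE replicate 1 or 3, or MyTrMaSt + CBE replicate 1, 2, 3 or 4, was left out (adjusted p = 0.051 to 0.27). The ubiquitin ligase Rnf167 was at 36.1, 31.0 and 30.1 CPM against 78.7, 89.0, 96.9, 74.3 and 84.9 CPM (1.38 ± 0.26), and the pseudogene Pisd-ps1, which may share reads with its parent gene, at 53.5 to 85.0 CPM against 109 to 203 CPM (1.24 ± 0.23). For these 4 genes no MyTrMaSt + CBE library was as low as any WT + CBE library.

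In the other 3 higher DEGs described, WT + CBE was the group that stood below the rest. Apln, which encodes the vascular peptide apelin, was at 10.8, 5.63 and 8.44 CPM in WT + CBE, 16.8, 17.7, 17.0, 35.9 and 19.6 CPM in MyTrMaSt + CBE and 31.2 to 50.02 CPM over the PBS libraries (1.31 ± 0.29, adjusted p = 0.014). The cytochrome P450 gene Cyp4f15 was at 8.15, 7.51 and 9.04 CPM in WT + CBE, 16.7 to 26.1 CPM in MyTrMaSt + CBE and 14.3 to 30.7 CPM after PBS (1.29 ± 0.27). The orphan receptor Gpr45 was at 4.36, 6.57 and 6.03 CPM, 8.26 to 15.3 CPM and 13 to 17.1 CPM in the same order (1.11 ± 0.27). None of the 3 overlapped between the CBE groups. Apln was no DEG without WT + CBE replicate 2 (adjusted p = 0.12) or 3 (0.062), Cyp4f15 not without WT + CBE replicate 1 (0.071) or 2 (0.066), and Gpr45 not without any 1 WT + CBE library (0.063 to 0.32) or without MyTrMaSt + CBE replicate 1, 3 or 4 (0.053 to 0.082).

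**Figure D5:**
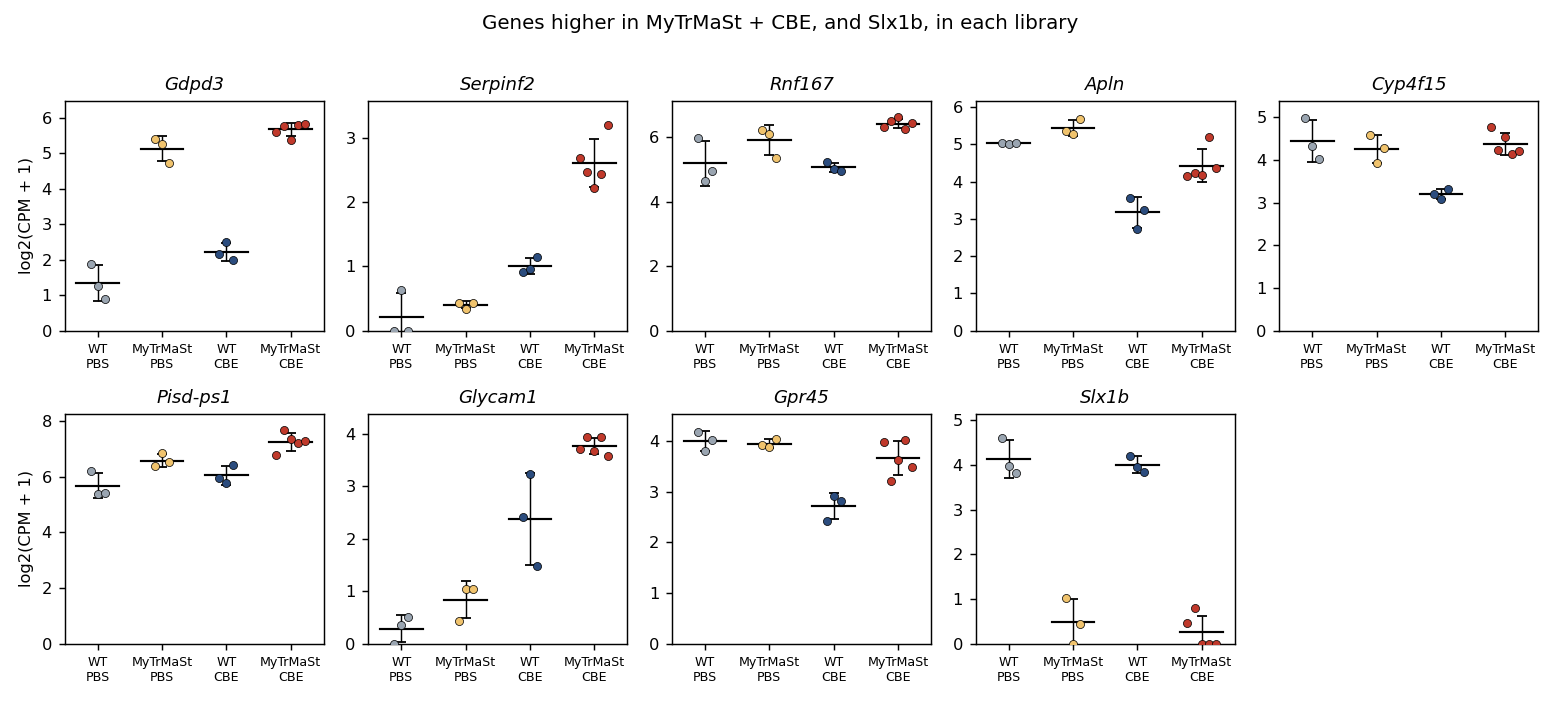
Level of the 8 described genes that were higher in MyTrMaSt + CBE, and of Slx1b, as log2(CPM + 1) in each library (points), by genotype and treatment, with the mean (line) and SD (error bars) of each group. Gdpd3 and Slx1b separate the genotypes with and without CBE, whereas Apln, Cyp4f15 and Gpr45 are lowest in WT + CBE.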

How the data were processed

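RNA from a hemibrain of each of 14 mice was sequenced by bulk MARSseq, which reads transcript 3′ ends, on a NextSeq 500. Per the study's methods the authors aligned reads to mm10 with hisat and kept unique mappings, and the processing notes name cutadapt and HTSeq. Use of strand and of molecular identifiers is not given in the sources used here. The deposited raw counts per gene were analysed (13866 genes; every listed gene has at least 6 counts in 1 library, and 22 names had been turned into dates). A table of normalised values and one holding the authors' fold changes and p values were deposited too and were not used.

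All 14 libraries were fitted in one model with 4 group means in edgeR 4.0.16 (R 4.3.3; TMM factors, filterByExpr, quasi-likelihood F test), with Benjamini-Hochberg adjustment over 11852 genes. CPM values are counts scaled to the library total times its TMM factor. The labels do not say how the mice were bred, so that p values measure the spread between these mice. Depth was 1290616 to 3704691 counts, and the intervals of count ratios (95%) cover counting error only. In simulated data for MyTrMaSt + CBE versus WT + CBE (11705 genes), 90% of genes changed 2-fold, 98% changed 3-fold or 4-fold and 100% changed 8-fold had an adjusted p below 0.05, without regard to the fold cutoff. The changed genes were drawn from those that were not low in counts. Each gene was given the spread that is typical of its level. These shares therefore do not cover genes with few reads or with a wide spread of their own.

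Genes named were the 4 adaptors, the 10 lower DEGs with the largest fold change (groups apart, over 3 counts in a library of each group), the higher DEGs, the 10 lower DEGs with the highest mean CPM and, per list, up to 4 DEGs with groups apart and 2 other genes, each by highest mean CPM. The 30 gene lists and this rule were chosen with earlier results of these data known. Other genes were chosen after their values were seen. Of the 9 higher DEGs, 1 is not reported here, nor are some list members. Promoters are from RefSeq (GRCm38.p6) and gene positions from GENCODE vM21 on GRCm38. Alternatives were RLE factors, library totals, DESeq2 1.42.0, limma 3.58.1 (voom), other filters, the 8 CBE libraries alone, each library left out, a replicate block, Xist as covariate, thinned counts and other DEG rules.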

Additional observations from a re-analysis of the deposited data

Results flagged for a closer look

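In MyTrMaSt + CBE, 13 of 123 named genes examined had 1 library that stood apart from the other 4 by Dixon's gap ratio, which chance alone gives in about 1 of 20 groups. Replicate 4 was the library in 9 of them. It was the highest for Apln (35.9 CPM, others 16.8 to 19.6), Ccl2 (20.7, others 5.46 to 6.76), Ptx3 (25.1, others 3.51 to 6.65), Timp1 (42.3, others 16.4 to 23.9), Tgfbi (15.3, others 8.11 to 9.79), Tnfrsf1a (154, others 85.3 to 96.3), Zbp1 (3.45, others 0 to 0.811), Jak1 (165, others 125 to 136) and Eif2s3y (10.3, others 0). Replicate 5 was the highest for Itgb2 (52.1 CPM, others 33 to 37), Mx1 (1.57, others 0 to 0.39) and Psme1 (115, others 81.4 to 91.1). Replicate 1 was the highest for Rtp4 (7.40 CPM, others 2.25 to 3.52). The cause was not tested.

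For 26 named genes the genotype difference after CBE departed from that after PBS (edgeR interaction, adjusted p below 0.05), and in each the log2 interaction was below 0. Among interferon-stimulated genes it was -5.53 for Ifit1, -4.05 for Isg15, -4.0 for Oasl2, -3.59 for Irf7, -3.48 for Rtp4, -2.76 for Bst2, -2.33 for Irf9, -1.70 for Stat2 and -1.68 for Lgals3bp. Among GTPases it was -4.56 for Gbp2, -2.95 for Igtp, -2.65 for Irgm1 and -2.46 for Gbp3. Among presentation genes it was -2.16 for H2-D1, -1.72 for H2-K1, -1.44 for Tapbp and -1.18 for Ctss, and among chemokines -4.89 for Ccl5 and -4.70 for Cxcl10. Among glial and other genes it was -4.84 for Lcn2, -4.63 for Ms4a7, -2.21 for Tgfbi, -2.03 for Cp, -1.73 for Serpina3n, -1.70 for Ctsc and -1.21 for Vim. With the Xist level as a covariate 7 of the named genes were called. All 3 WT + PBS libraries lacked Xist counts and all 3 MyTrMaSt + PBS libraries had them, so that sex and genotype cannot be told apart in the PBS mice.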

How the results depend on the processing

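The 229 genes lower in MyTrMaSt + CBE became 138 with a filter at a mean of 10 CPM, 128 with all libraries thinned to the smallest total and 109 with the glmTreat test against 2-fold, and were 186 (without WT + CBE replicate 1) to 261 (without WT + PBS replicate 1) with 1 library left out. With RLE factors, library totals or DESeq2 they were 233, with limma voom 231, without a filter 250 and with the 8 CBE libraries alone 239, and DESeq2 kept 222 and voom 223 of the 229. Every one of the 229 that an alternative tested kept a log2 fold change below 0 there. The 9 higher genes became 23 without the fold cutoff and 2 with glmTreat, and 6 (without WT + CBE replicate 2) to 13 (without WT + CBE replicate 1) with 1 library left out. The 19 PBS genes became 115 with DESeq2, 7 with the replicate block, 3 with Xist as covariate and 3 with glmTreat, and 5 to 303 with 1 library left out. The 26 named genes with a called interaction became 7 with Xist and 10 with thinning (13 to 34 with 1 library left out), and the 47 lower genes with a called interaction became 30 with the replicate block, 10 with Xist and 13 with thinning (22 to 66). Same-numbered libraries correlated at 0.117, 0.0749 and 0.0444 in their deviations from the group means, so the numbers were not taken to pair the mice. The replicate block gave 194 lower genes, 186 of them among the 229, and 8 higher, 6 of them among the 9. Of 2976 values of named genes under alternatives, 2893 stayed called or not called as before, 73 lost the call (16 genes) and 10 gained it (5 genes). Direction was kept wherever a gene was called, but some genes that were not called changed sign, such as Gfap (-0.11 to 0.04). Of 718 list medians, 52 moved by over 1 SD between libraries. Depth limits genes near 1 count per library, such as Usp18 in MyTrMaSt + CBE, where the size of the fold is uncertain. The causes of these changes were not tested, except that thinning and the stricter filter leave fewer reads or genes.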

Other observations

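Of the 229 genes lower in MyTrMaSt + CBE, 94 were in none of the gene lists, and those named here were chosen after their values were seen. Cyba, which encodes the membrane subunit p22phox of the phagocyte oxidase, was at 217, 253 and 228 CPM in WT + CBE and at 85.3, 83.0, 81.5, 97 and 97.9 CPM in MyTrMaSt + CBE (-1.39 on the log2 scale, adjusted p = 0.0012). The cytosolic subunit Ncf4 (-1.70, adjusted p = 0.00038) and the proton channel Hvcn1 (-1.01, adjusted p = 0.0019) were lower too, and Irg1, which makes itaconate in activated myeloid cells, was at 12.2 to 16.3 CPM against 0 to 1.22 CPM. Tspo, the mitochondrial protein whose ligands are used to image gliosis (exons of Mcat opposite), was at 120, 108 and 131 CPM against 33.1, 43.9, 42.6, 47.8 and 40.7 CPM (-1.52, adjusted p = 7.1e-06). The astrocyte-derived glycoprotein Chil1 (YKL-40) was at 172 to 233 against 48.2 to 72.4 CPM (-1.69, interaction -1.46, adjusted p = 0.043). Cytokine receptor chains were also among them: Il2rg (-2.14), Il21r (-2.25), Csf2rb (-1.56), Csf2rb2 (-1.60), Il10ra (-1.28) and Il10rb (-1.04). Trex1, the exonuclease that degrades cytosolic DNA, was at 62.9 to 82.6 against 17.2 to 31.9 CPM (-1.51, adjusted p = 0.00016). Shisa5 stood at 264, 269 and 265 CPM in WT + CBE, at 99.9 to 107 CPM in MyTrMaSt + CBE and at 103 to 124 CPM in WT + PBS (-1.37, interaction -1.37, adjusted p = 0.0012).

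Nnt, a mitochondrial transhydrogenase, was at 19.5, 22.1 and 13.3 CPM in WT + CBE and at 7.40, 4.88, 7.29, 8.86 and 5.48 CPM in MyTrMaSt + CBE (-1.46, adjusted p = 0.0032), and Gabra2, a GABA receptor subunit, was at 36.1, 20.2 and 25.9 CPM against 5.84, 4.88, 4.05, 8.37 and 5.09 CPM (-2.31, adjusted p = 0.00029). Both genes are known to differ between C57BL/6 substrains. The substrain of the MyTrMaSt line is not given in the sources used here, and neither difference was called after PBS (-1.03 and -0.77).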
